A study of Mus musculus with 24 samples.

Results

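Interferon-stimulated genes are genes that cells switch on when interferons bind their surface receptors. A list of 37 such genes was followed in the left ventricle (LV) of the mouse heart. The members were the listed symbols that reached at least 0.5 TPM in at least 3 of the 24 libraries, and all 37 met that minimum, out of 24972 gene symbols in the table. TPM, the unit of the table, is the share of a library's transcripts that a gene takes, corrected for transcript length, so levels can be set side by side between genes.

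Messenger RNA came from the LV free wall of C57Bl6/J mice, in stranded libraries that fell into 8 groups of 3 by sample title. The groups were females and males after metabolo-hypertensive stress (MHS) at day 28, females and males with MHS followed by reverse remodeling (MHS_RR) at day 56, and untreated controls of each sex at day 28 and at day 56. The treatment label of MHS is AngII + HFD, for angiotensin II, a hormone that raises blood pressure, and a fatty diet. The labels do not say how reverse remodeling was brought about. Ages were not given, no allele or transgene was named, and nothing in the labels says whether a library held more than 1 mouse, so the p-values below measure the spread between libraries. For 12 libraries the time and treatment labels contradict the titles, and groups were taken from the titles. Those labels swap the libraries titled MHS at day 28 with those titled control at day 56. The cardiac stress gene Acta1 was 1815 to 4406 TPM in the libraries titled MHS and 287 to 1067 TPM in those titled control at day 56. With groups formed from those labels instead, 0 members were called for MHS and 23 were called lower for MHS_RR, both sexes averaged. The all-gene shares under that grouping are not given, so these member counts have no background. The calls changed with the grouping, so every result below rests on the titles.

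Type I interferons (the alpha and beta families) signal through the receptor Ifnar1 and Ifnar2 and the kinases Jak1 and Tyk2 to a complex that contains Stat2 and Irf9. That complex binds a promoter element called the interferon-stimulated response element (ISRE). Interferon gamma, made mostly by T cells and natural killer cells, signals through Ifngr1 and Ifngr2 and acts on promoters at the gamma-activated site (GAS). The genes turned on include sensors of foreign nucleic acid, the transcription factors of the pathway itself, proteins that block viral replication, GTPases that attack vacuoles holding microbes, the class I antigen presentation machinery and chemokines that draw T cells. Most cell types can express such genes, in the heart cardiomyocytes, endothelium, fibroblasts and resident macrophages among them.

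Of the 24 libraries, 2 stood apart in sex-linked or atrial transcripts. Female MHS_RR replicate 3 had Y-linked transcripts at 26.1% of the male mean, against 0% to 1.74% in the other females, and the lowest Xist of any female library, at 17.3 TPM. Female control day 28 replicate 2 held atrial transcripts, with the atrial myosin light chain Myl7 at 625 TPM and the atrial calcium pump regulator Sln at 173 TPM. The next highest library, female MHS replicate 3, had 125 TPM of Myl7 and 24.2 TPM of Sln. Male control day 28 replicate 1 and male control day 56 replicate 1 differed in another way. GC content and transcript length accounted for 25.1% and 27.9% of their deviations from the gene means, against at most 18.5% in any other library. Their Y-linked transcripts were the lowest of the males, at 54.1% and 42.8% of the male mean. Both were kept, and each was left out only in its own leave-out fit. Ventricular cardiomyocyte markers summed to 83870 to 91460 TPM in the 6 MHS libraries and to 96133 to 106335 TPM in the other libraries, which fits the LV label. All 8 listed cardiac stress genes rose with MHS when the sexes were averaged (median log2 fold change 2.27). In whole tissue, fewer cells of a type and less RNA per cell cannot be told apart.

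Promoter sequence from RefSeq (mouse build GRCm38.p6), 250 bases before to 50 bases after the start of transcription, was at hand for 28 of the 37 members. The ISRE core was searched as GAAANNGAAA, which reads TTTCNNTTTC on the other strand, and GAS as TTCNNNGAA on both strands. The ISRE core was present in 17 of the 28 (60.7%), against 3.99% of 27025 genes with a window of that length. GAS was present in 7 of the 28 (25%), against 9.55% of genes. The following 5 stretches of 100 bases run 5′ to 3′ in the direction of the gene and end 61 bases before its start. They are shown because they carry the core in 4 members called below and in Ifit1, the partner of Ifit3, and capitals mark each match to the core on either strand. Ifit1 and Ifit3 each hold a pair of cores, whereas Rsad2, Ifi205 and B2m hold a lone core in the stretch shown. The positions, in the order printed, are chr19:34640729-34640828 (plus strand), chr19:34583369-34583468 (plus strand), chr12:26456513-26456612 (minus strand), chr1:174031816-174031915 (minus strand) and chr2:122147527-122147626 (plus strand).
Ifit1: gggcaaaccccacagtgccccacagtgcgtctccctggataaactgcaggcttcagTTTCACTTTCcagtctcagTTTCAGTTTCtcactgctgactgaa
Ifit3: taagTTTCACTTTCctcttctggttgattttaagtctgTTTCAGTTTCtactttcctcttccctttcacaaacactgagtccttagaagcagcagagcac
Rsad2: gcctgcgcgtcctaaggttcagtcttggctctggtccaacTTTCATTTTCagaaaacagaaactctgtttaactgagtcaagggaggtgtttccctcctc
Ifi205: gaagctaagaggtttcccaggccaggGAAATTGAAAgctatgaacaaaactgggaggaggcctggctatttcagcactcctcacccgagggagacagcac
B2m: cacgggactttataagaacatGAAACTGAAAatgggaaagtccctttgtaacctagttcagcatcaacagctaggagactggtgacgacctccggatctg

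Among members that passed a test below, Oasl2, Trim25, Irf9 and Cxcl9 had a promoter window without these letters. A match is a description of the window and not a measured binding site.

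The members spanned a wide range of levels in the ventricle. B2m, the light chain of class I molecules, was the most abundant, with a mean of 874 TPM over the 24 libraries. Next came Bst2, the tether that holds budding virions at the cell surface, at 49.8 TPM, and Iigp1, a GTPase of the immunity-related family, at 41.8 TPM. Ifi27, an interferon-induced mitochondrial protein, averaged 33.6 TPM, and Irgm1, a regulator of the immunity-related GTPases, 28.1 TPM. At the low end, Mx1, a dynamin-like GTPase that blocks influenza viruses, averaged 0.573 TPM and reached 0.5 TPM in 12 libraries. Cxcl10, a chemokine that draws activated T cells through the receptor Cxcr3, reached 0.5 TPM in 19 libraries, and the other 35 members did so in all 24.

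The interferons themselves were nearly undetected. The 21 listed interferon ligand genes summed to between 0 and 0.514 TPM per library, and none of them passed the minimum for testing. Ifnb1 was listed at 0 in every library, and Ifng was above 0 in 7 of the 24. T and natural killer cell markers together summed to 3.17 to 6.55 TPM, whereas macrophage markers summed to 286 to 563 TPM.

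**Figure D1:**
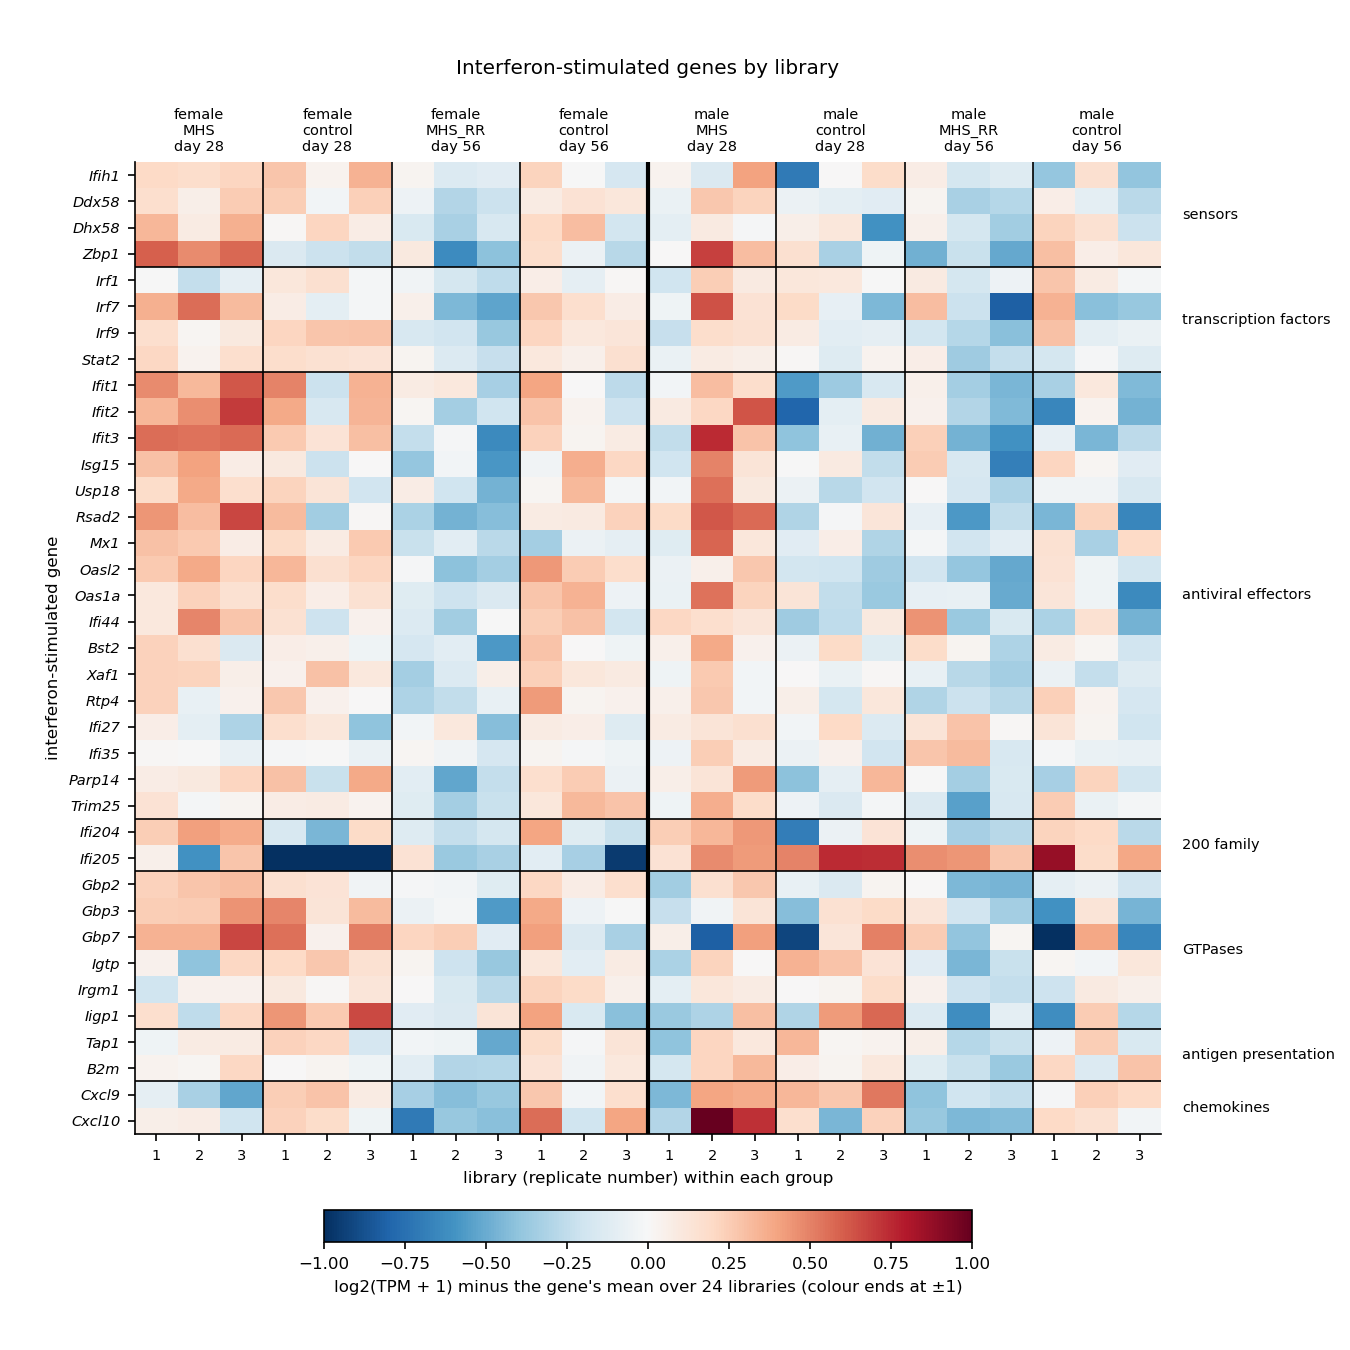
Heat map of the 37 interferon-stimulated genes (rows, grouped by role) in the 24 libraries (columns, grouped by sex and condition), as log2(TPM + 1) minus the mean of each gene over all libraries, with the colour scale ending at -1 and 1. The MHS_RR columns hold the most values below a gene's mean, with male MHS_RR replicate 1 standing out above the other 2 male MHS_RR libraries.

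Ranking the 8 group means of each member showed where the module was high and low. The highest mean lay in MHS females for 15 of the 37 members and in MHS males for 6. The lowest mean lay in MHS_RR males for 14 members and in MHS_RR females for 13. No member had its highest mean in MHS_RR females. The same ranking is not given for all genes, so these counts have no background. All genes leaned the same way in the tests below, averaged over the sexes. With MHS 11.1% were called higher and 5.88% lower, and with MHS_RR 1.98% were called higher and 14.3% lower. Mean deviation of the members from their own averages was 0.18 on the log2 scale in MHS females and 0.08 in day 28 control females, and it was 0.14 in MHS males against -0.04 in day 28 control males. It was -0.20 in MHS_RR females and 0.08 in day 56 control females, and -0.18 in MHS_RR males against -0.07 in day 56 control males.

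Single libraries moved many members at once. Male MHS replicate 1 was the lowest of its group for 32 of the 37 members, against 41.0% of all genes, and male MHS replicate 2 was the highest for 25, against 36.2% of all genes. Female control day 56 replicate 1 was the highest of its group for 26 members, against 31.5% of all genes. Male MHS_RR replicate 1 was the highest of its group for 30 members, against 36.2% of all genes. Groups therefore overlapped for many members even where their means lay apart. Levels in the other libraries of these groups are given below for each member on which a result turns.

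The first question was whether MHS, a load of pressure and diet, changed these genes at day 28. Calls were made with limma, which fits moderated linear models, on log2(TPM + 1), at a threshold of 0.05 after Benjamini-Hochberg adjustment over all 14055 genes tested. Fold changes are on that scale, which understates the change of genes with low TPM. In females 2 members rose, Zbp1 and Ifi205, and 0 fell, with 4 higher and 1 lower at an unadjusted p under 0.05. Over all genes tested 3.16% were called higher and 2.13% lower in that comparison. In males 0 members were called, while 7.36% of all genes were called higher and 2.38% lower. At an unadjusted p under 0.05, 10 members were higher and 0 lower in males. All-gene shares at an unadjusted p are not given here or below, so member counts at that threshold have no background. Averaged over the sexes, 4 members rose (Zbp1, Ifi204, Rsad2 and Ifit3) and 1 fell (Cxcl9), against 11.1% of all genes called higher and 5.88% lower. These shares do not set the members above the background. The median log2 fold change of the members was 0.12 in the mean of both sexes, against 0.04 for all genes, and 29 of 37 lay above 0. Under quantile normalization 3 members were called higher and 2 lower, 24 of 37 lay above 0, and the calls over all genes moved to 1187 higher and 1285 lower, against 1566 and 826 without it. In MHS males alone the all-gene split moved to 623 higher and 650 lower, against 1034 and 335.

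Zbp1, a sensor of left-handed nucleic acid that can trigger necroptosis, was the sensor that MHS raised. Its levels were 4.87, 4.40 and 4.77 TPM in MHS females, against 2.52, 2.36 and 2.27 TPM in day 28 control females. All 3 MHS females lay above all 3 control females, a log2 fold change of 0.75 ± 0.18 (SE; limma adjusted p = 0.0167, n = 3 each). MHS males had 2.90, 5.25 and 3.82 TPM and day 28 control males had 3.35, 2.10 and 2.77 TPM, so the male ranges overlapped. The average over the sexes was 0.57 ± 0.13 (limma adjusted p = 0.00321), and it was called in all 24 fits that left out 1 library. The female call was lost without control replicate 3 (limma adjusted p = 0.0649) and without MHS replicate 3 (limma adjusted p = 0.0542).

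The other sensors did not pass the test. Ifih1 (MDA5) and Ddx58 (RIG-I), which detect double-stranded and uncapped RNA in the cytoplasm, averaged a log2 fold change of 0.12 each, and Dhx58 (LGP2), their regulator, 0.15. Nor did the transcription factors: Irf7, the amplifier of the type I response, averaged 0.39 (limma adjusted p = 0.139), Stat2 0.02, Irf9 -0.05 and Irf1 -0.11. Irf7 was 21.5, 24.8 and 20.9 TPM in MHS females, against 17.4, 15.4 and 16.3 TPM in day 28 control females, ranges that did not overlap. MHS males, at 16.04, 26.2 and 18.4 TPM, overlapped with day 28 control males, at 19.1, 15.6 and 11.8 TPM.

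The 17 members grouped here as antiviral effectors include the Isg15 protease Usp18. All 17 had a positive log2 fold change in males and in the mean of both sexes, where 2 of the 17, Rsad2 and Ifit3, were called. The male comparison leaned upward over all genes too, with 7.36% called higher and 2.38% lower. Members also moved together by library, as in male MHS replicate 1, so these signs are not 17 separate observations. Under quantile normalization 15 of the 17 were positive in males and 14 in the average. In females 13 of the 17 were positive and 0 were called. Rsad2 (viperin), which makes a chain-terminating nucleotide, was 20.5, 18.6 and 24.2 TPM in MHS females, against 18.7, 11.4 and 14.97 TPM in day 28 control females. In males it was 17.1, 23.3 and 22.4 TPM after MHS, against 11.9, 14.7 and 16.2 TPM in controls. The male ranges did not overlap and the female ranges did, by a narrow margin. The average was 0.50 ± 0.14 (limma adjusted p = 0.0155). Without female control day 28 replicate 2, the control library with the most atrial transcripts, it was 0.42 (limma adjusted p = 0.0502).

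Ifit3 binds foreign RNA together with Ifit1. It was 25.1, 24.8 and 25.3 TPM in MHS females, against 20.3, 18.5 and 20.8 TPM in day 28 control females, and the MHS females were both higher and unusually close together. MHS males, at 13.9, 28.7 and 20.6 TPM, were widely scattered beside day 28 control males at 12.4, 15.8 and 11.7 TPM. The average of 0.45 ± 0.15 (limma adjusted p = 0.0442) was the weakest of the calls, lost in 15 of the 24 fits that left out 1 library, with the highest adjusted p of 0.14 without male MHS replicate 2. Ifit1 and Ifit2, its partners, averaged 0.39 (limma adjusted p = 0.0694) and 0.44 (limma adjusted p = 0.0603). Of the transcript sequence of Ifit3, 61.8% of 31-base words also occur in its near copy Ifit3b, so reads of the pair may have been split between them. Ifit3b rose by 0.45 on the log2 scale (limma adjusted p = 0.011).

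Ifit1 had one of the widest spreads of group means among the effectors, at a ratio of 1.94. It was 9.50, 8.48 and 10.7 TPM in MHS females, against 9.68, 5.54 and 8.66 TPM in day 28 control females, and the ranges overlapped. MHS males had 6.44, 8.40 and 7.56 TPM, all above the 4.13, 4.89 and 5.79 TPM of day 28 control males, at 0.51 (limma adjusted p = 0.118). Of the 31-base words of Ifit1, 9.16% also occur in its relative Ifit1bl2, which fell with MHS, at -0.74 in the average (limma adjusted p = 6.84e-05). Ifit1bl2 was 2.16, 2.50 and 2.62 TPM in MHS females, against 5.36, 4.79 and 5.12 TPM in controls, and 2.42, 2.42 and 2.47 TPM in MHS males, against 2.99, 4.69 and 5.81 TPM in controls, with no overlap in either sex. In males Oasl2, an antiviral protein related to the oligoadenylate synthetases, and Usp18, the protease that removes Isg15 from proteins, did not overlap either. Oasl2 was 9.84, 10.7 and 12.6 TPM in MHS males, against 8.90, 8.84 and 7.80 TPM in controls (0.33 ± 0.12, limma adjusted p = 0.0848). Usp18 was 4.50, 7.22 and 4.98 TPM in MHS males, against 4.36, 3.63 and 3.89 TPM in controls (0.38, limma adjusted p = 0.135). MHS males lay wholly above controls for 6 members and wholly below for 1, where 18.5% and 7.66% of all genes did so. MHS females lay wholly above for 6 members and wholly below for 3, where 11.1% and 11.8% of all genes did so.

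Bst2 and Ifi27, the most abundant effectors, differed little. Bst2 was 57.9, 55.4 and 44.5 TPM in MHS females, against 51.7, 51.2 and 47.8 TPM in day 28 control females, and 51.0, 64.3 and 50.9 TPM in MHS males, against 47.4, 56.3 and 45.2 TPM in day 28 control males. Ifi27 was 34.9, 31.04 and 26.8 TPM in MHS females, against 37.6, 36.1 and 25.0 TPM in controls, and 35.3, 36.6 and 37.3 TPM in MHS males, against 32.7, 38.5 and 30.1 TPM in controls. Ranges overlapped throughout, and the averages were 0.10 and 0.02.

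The 2 members of the interferon-inducible 200 family behaved unlike each other. These proteins bind DNA in the nucleus and cytoplasm. Ifi204 was 8.52, 9.68 and 9.41 TPM in MHS females, against 6.20, 4.86 and 8.19 TPM in day 28 control females. In males it was 8.53, 9.15 and 9.89 TPM after MHS, against 3.98, 6.72 and 7.85 TPM in controls. MHS libraries lay above controls without overlap in each sex, an average of 0.51 ± 0.14 (limma adjusted p = 0.0136). The call held in all 24 fits that left out 1 library and was lost without both female control day 28 replicate 2 and female MHS_RR replicate 3 (limma adjusted p = 0.0526).

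Ifi205 rose in MHS females to 12.4, 7.45 and 14.6 TPM, against 4.32, 5.05 and 5.23 TPM in day 28 control females. That was the largest called change among the members in this comparison, 1.05 ± 0.22 (limma adjusted p = 0.00722). It was called in all 24 fits that left out 1 library and was not called when only the groups compared were fitted (limma adjusted p = 0.0686). MHS males, at 13.2, 16.8 and 16.3 TPM, lay below day 28 control males, at 17.2, 20.5 and 20.5 TPM (-0.31, limma adjusted p = 0.436). The female effect minus the male effect was 1.36 ± 0.31, with a limma adjusted p of 0.497 over all genes. Of all genes, 0.00711% were called in that difference, and of the members 0 were, with 1 at an unadjusted p under 0.05. Reads may be shared here as well, since 22.1% of 31-base words of Ifi205 and 34% of those of Ifi204 occur in other genes, chiefly Ifi211. Ifi211 had an average log2 fold change of 0.50 (limma adjusted p = 0.0116).

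**Figure D2:**
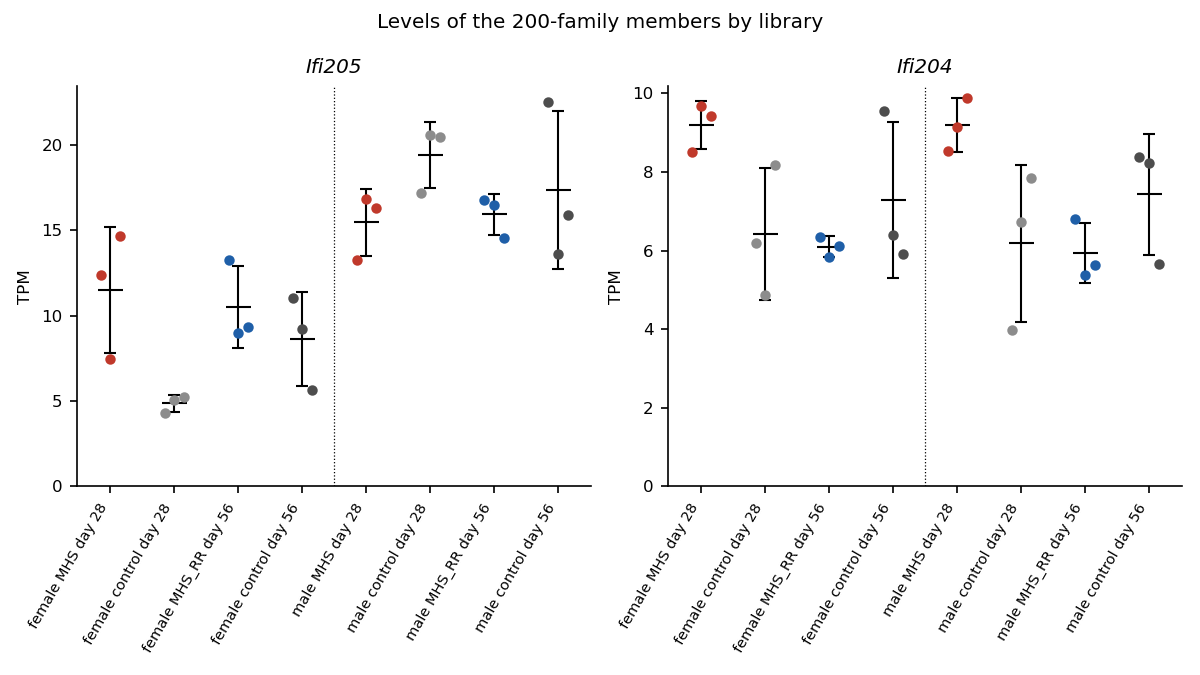
TPM of Ifi205 and Ifi204 in each library, by sex and condition (points, libraries; dash, group mean; bar, SD; n = 3). Ifi205 was 4.32 to 5.23 TPM in day 28 control females, the lowest group, whereas Ifi204 lay at similar levels in females and males.

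None of the 6 GTPases was called. Gbp2, a guanylate-binding protein, was higher without overlap in MHS females, at 24.4, 25.3 and 25.9 TPM, against 23.2, 22.9 and 20.1 TPM in day 28 control females, although the log2 fold change was only 0.19. Igtp (Irgm3) averaged -0.27 (limma adjusted p = 0.078), Iigp1 -0.39 (limma adjusted p = 0.16) and Irgm1 -0.08. Iigp1 was 45.5, 33.9 and 47.0 TPM in MHS females, against 55.3, 48.7 and 64.8 TPM in day 28 control females, with no overlap. In males it was 31.1, 32.5 and 50.04 TPM after MHS and 32.8, 54.7 and 60.7 TPM in controls, with overlap. Irgm1 was 24.2, 28.8 and 28.8 TPM in MHS females, against 30.0, 28.2 and 30.6 TPM in controls, and 26.1, 30.3 and 29.7 TPM in MHS males, against 28.1, 28.6 and 31.9 TPM in controls. Of the 6 GTPases, genes that respond strongly to interferon gamma, 4 had an average below 0 (5 of 6 under quantile normalization). Whether the response to interferon gamma changed was not tested.

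Gbp7 was too scattered in males to read. It was 10.2, 5.14 and 13.3 TPM in MHS males, against 4.70, 10.7 and 14.3 TPM in day 28 control males, and 2.23 TPM in male control day 56 replicate 1. The 2 control libraries with the lowest Gbp7 were also those in which GC content and transcript length accounted for the largest shares of the deviations from the gene means, 25.1% and 27.9%. With GC content and length corrected, the male log2 fold change of Gbp7 was -0.07, against -0.02 without the correction. In females it was 12.8, 12.7 and 16.2 TPM after MHS, against 14.8, 10.1 and 14.4 TPM in controls.

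Cxcl9, a chemokine induced by interferon gamma, was the only member called lower with MHS. It was 4.74, 3.87 and 3.26 TPM in MHS females, against 6.25, 6.45 and 5.46 TPM in day 28 control females, with no overlap (-0.52, limma adjusted p = 0.0818). MHS males had 3.48, 7.04 and 6.91 TPM and control males 6.70, 6.34 and 7.81 TPM, so replicate 1 alone set the male value apart. The average was -0.39 ± 0.12 (limma adjusted p = 0.0261). Without male MHS replicate 1 it was -0.25 (limma adjusted p = 0.054), and the call was lost in 6 of the 24 fits that left out 1 library. Without that library the average comparison called 7 members higher and 0 lower. The all-gene shares of that fit are not given, so these counts have no background.

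Cxcl10 went with Cxcl9 in females and not in males. It was 1.08, 1.10 and 0.735 TPM in MHS females, against 1.33, 1.27 and 0.937 TPM in day 28 control females. MHS males had 0.626, 2.97 and 2.30 TPM, against 1.24, 0.451 and 1.34 TPM in control males, and the ranges overlapped in each sex (average 0.18, limma adjusted p = 0.575). B2m was 890, 879 and 1003 TPM in MHS females, against 871, 883 and 843 TPM in controls, and 767, 1008 and 1088 TPM in MHS males, against 907, 885 and 935 TPM in controls, with an average of 0.07. Tap1, a subunit of the transporter that loads peptides onto class I molecules, averaged -0.10.

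Of the 5 averaged MHS calls, 3 were lost without 1 control library. Without female control day 28 replicate 2, Rsad2, Ifit3 (limma adjusted p = 0.0904) and Cxcl9 (limma adjusted p = 0.0584) were no longer called, and Zbp1 and Ifi204 were. Macrophage markers moved in the same direction as the called effectors: 3 of 12 (Ccr2, Cd68 and Lyve1) were called higher with MHS in the average, and the summed level was 368 to 563 TPM in MHS females, against 358 to 363 TPM in day 28 control females, and 412 to 437 TPM in MHS males, against 374 to 422 TPM in control males. Fibroblast markers were called higher for 4 of 6, and ventricular cardiomyocyte markers were called lower for 4 of 8 (Myl2, Myl3, Tnni3 and Tnnt2). The part of these cell types in the result was not tested.

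**Figure D3:**
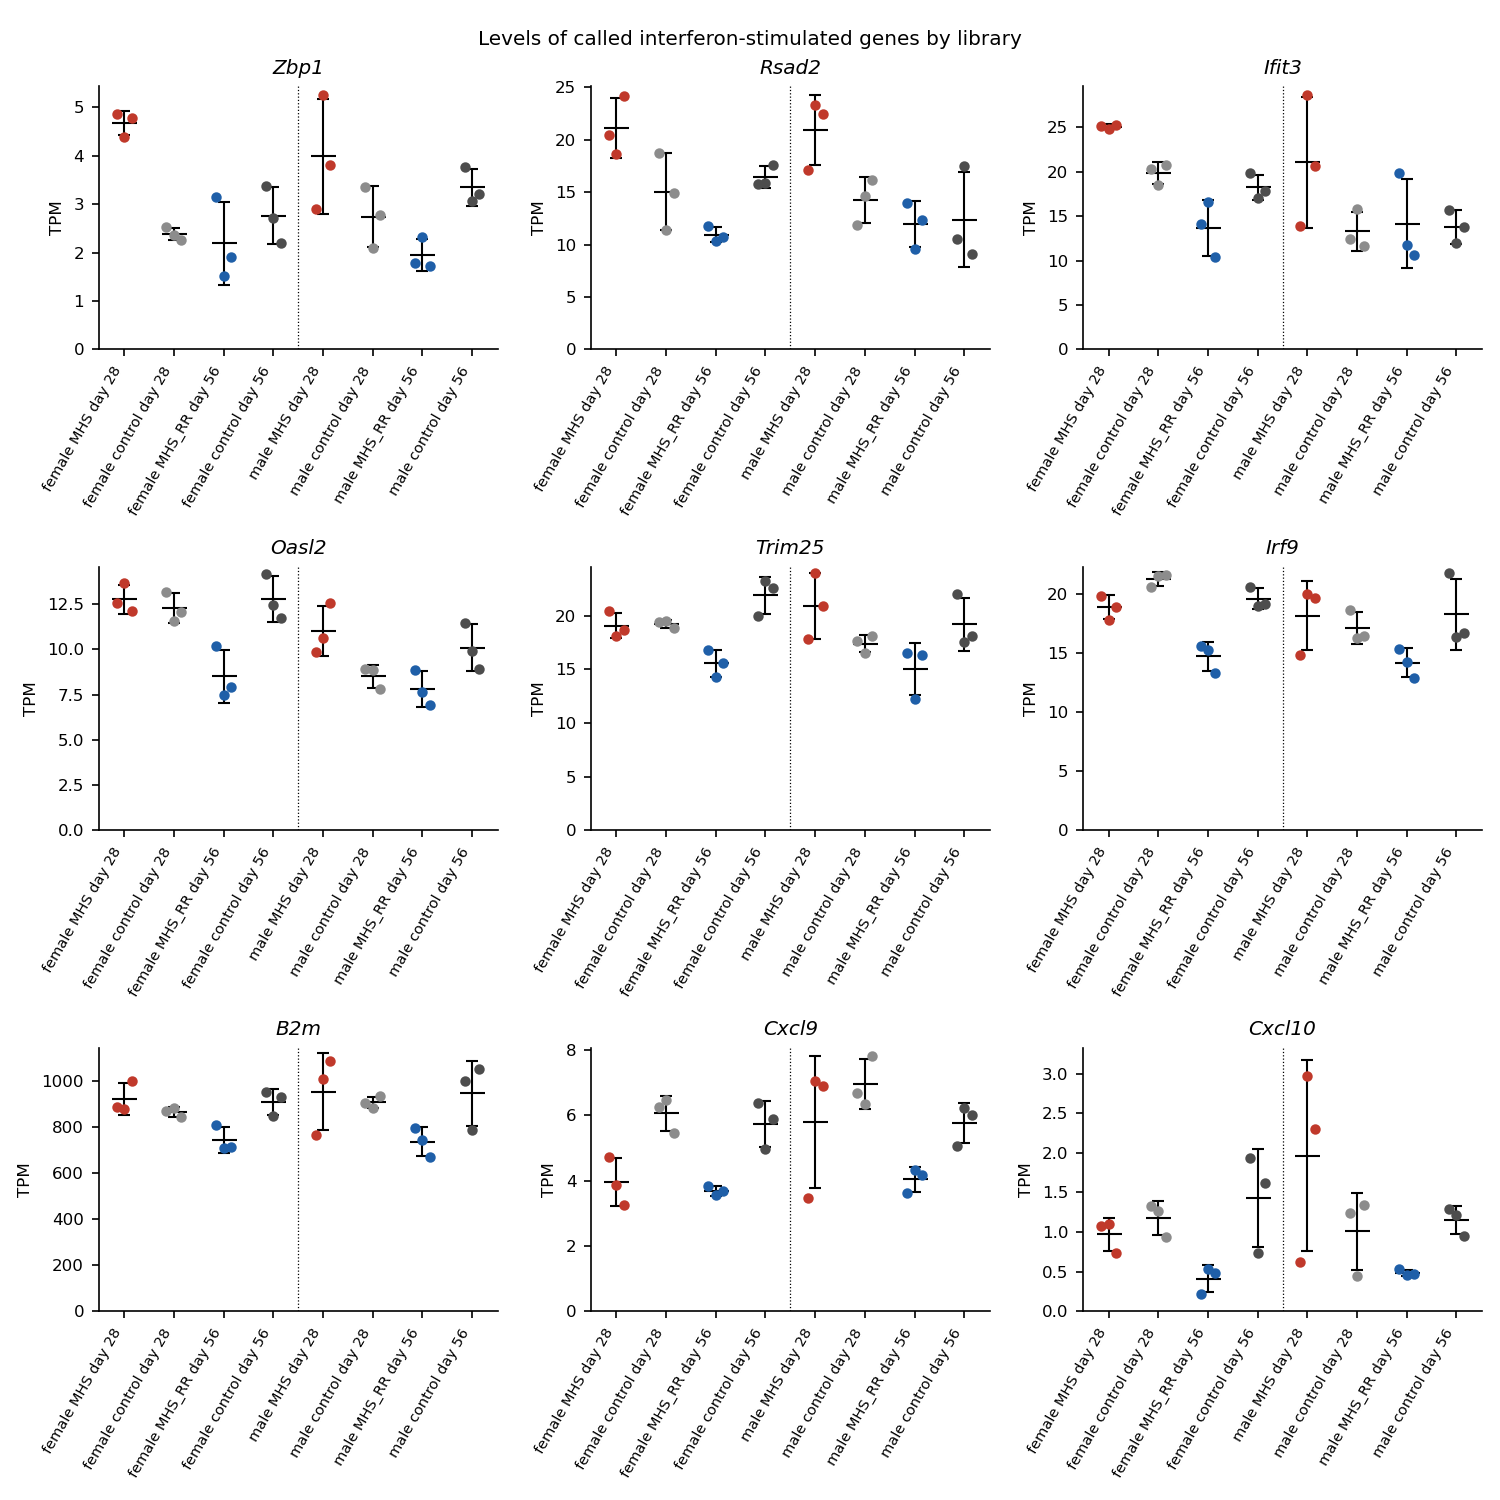
TPM per library of 9 members (points, libraries; dash, group mean; bar, SD; n = 3), with females left of males and each treated group left of its own-day control. MHS_RR points lie at the low end of most panels, as for Oasl2 in MHS_RR females (7.46 to 10.2 TPM) beside day 56 control females (11.7 to 14.2 TPM).

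The second question was whether the members differed from controls at day 56, after reverse remodeling. Averaged over the sexes 8 members fell (Oasl2, Trim25, Irf9, B2m, Cxcl9, Rtp4, Cxcl10 and Zbp1) and 0 rose, with 16 lower at an unadjusted p under 0.05. Over all genes 14.3% were called lower and 1.98% higher, so the direction was shared by the transcriptome as a whole. The median log2 fold change of the members was -0.20, against -0.06 for all genes, and 32 of 37 lay below 0 (27 of 37 under quantile normalization). In females 3 fell (Oasl2, Trim25 and Irf9) and 0 rose, against 4.07% of all genes called lower and 0.491% higher, with 34 of 37 members below 0 and a median of -0.29 against -0.09 for all genes. In males 0 were called, against 0.064% of all genes called lower and 0.00711% higher. At an unadjusted p under 0.05, 8 members were lower and 0 higher in males. All-gene shares at an unadjusted p are not given, so these 8 and the 16 of the average have no background. The male median was -0.09, against -0.04 for all genes. With libraries weighted by their quality, 2 members were called higher and 3 lower in males and the median turned to 0.07, so the male direction depended on that choice. The all-gene share under that weighting is not given, so these member counts have no background.

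The scale of these values mattered here. Under quantile normalization, 5 members were called lower in the average and 0 in females, and calls over all genes moved to 427 higher and 907 lower in the average, against 278 and 2006, and to 69 higher and 171 lower in females, against 69 and 572. Median-of-ratios scaling gave 624 higher and 889 lower in the average, with 5 members called lower. Female MHS_RR replicate 3, the library with Y-linked transcripts, also mattered for the female calls. Without it 0 members were called in females, the median was -0.22, and 7 were called in the average. The all-gene shares of that fit are not given. That library was not alone in its effect on the female calls. The female calls of Oasl2, Trim25 and Irf9 were also all lost without female MHS_RR replicate 2 or without female control day 56 replicate 2.

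Among the 17 effectors, 15 had a negative log2 fold change in the average (12 under quantile normalization) and 3 were called, Oasl2, Trim25 and Rtp4. Oasl2 was 10.2, 7.46 and 7.90 TPM in MHS_RR females, against 14.2, 12.5 and 11.7 TPM in day 56 control females, and 8.87, 7.64 and 6.93 TPM in MHS_RR males, against 11.5, 9.92 and 8.92 TPM in control males. Ranges did not overlap in either sex, though by a narrow margin in males. The log2 fold change was -0.54 ± 0.12 in females (limma adjusted p = 0.0157) and -0.44 ± 0.08 in the average (limma adjusted p = 0.00266).

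Trim25, the ubiquitin ligase that activates RIG-I, was 16.8, 14.3 and 15.6 TPM in MHS_RR females, against 19.9, 23.2 and 22.6 TPM in day 56 control females. MHS_RR males had 16.6, 12.3 and 16.3 TPM, against 22.04, 17.5 and 18.1 TPM in controls. Every MHS_RR library lay below every control of its sex, at -0.47 ± 0.11 in females (limma adjusted p = 0.0263) and -0.40 ± 0.08 in the average (limma adjusted p = 0.00345). Rtp4, a receptor-trafficking protein with antiviral activity, was 10.7, 11.3 and 12.8 TPM in MHS_RR females, against 18.6, 13.9 and 13.98 TPM in controls, and 10.8, 11.6 and 11.02 TPM in MHS_RR males, against 16.2, 13.9 and 11.97 TPM in controls. Again no ranges overlapped, and the average was -0.34 ± 0.09 (limma adjusted p = 0.0164).

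Irf9, the DNA-binding subunit of the type I complex, was the transcription factor that fell. It was 15.7, 15.3 and 13.3 TPM in MHS_RR females, against 20.6, 19.0 and 19.2 TPM in day 56 control females, and 15.4, 14.3 and 12.9 TPM in MHS_RR males, against 21.8, 16.4 and 16.7 TPM in control males. The groups were apart in each sex, at -0.39 ± 0.11 in females (limma adjusted p = 0.0492) and -0.36 ± 0.08 in the average (limma adjusted p = 0.00546). In females alone the call was lost in 17 of the 24 fits that left out 1 library. Stat2 was -0.14, Irf1 -0.15 and Irf7 -0.28 in the average, and none of these was called.

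For Oasl2 in females the call was lost without control replicate 2 (limma adjusted p = 0.0539), MHS_RR replicate 2 (limma adjusted p = 0.117) or MHS_RR replicate 3 (limma adjusted p = 0.0647). For Trim25 in females it was lost without control replicate 2 or 3 (limma adjusted p = 0.109 and 0.106) or MHS_RR replicate 2 or 3 (limma adjusted p = 0.151 and 0.0752). The averages of Oasl2, Trim25, Irf9, B2m, Cxcl9 and Rtp4 were called in all 24 fits. Under quantile normalization Irf9 (limma adjusted p = 0.0555) and Rtp4 (limma adjusted p = 0.131) were not called in the average, nor was Rtp4 under median-of-ratios scaling (limma adjusted p = 0.0829).

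**Figure D4:**
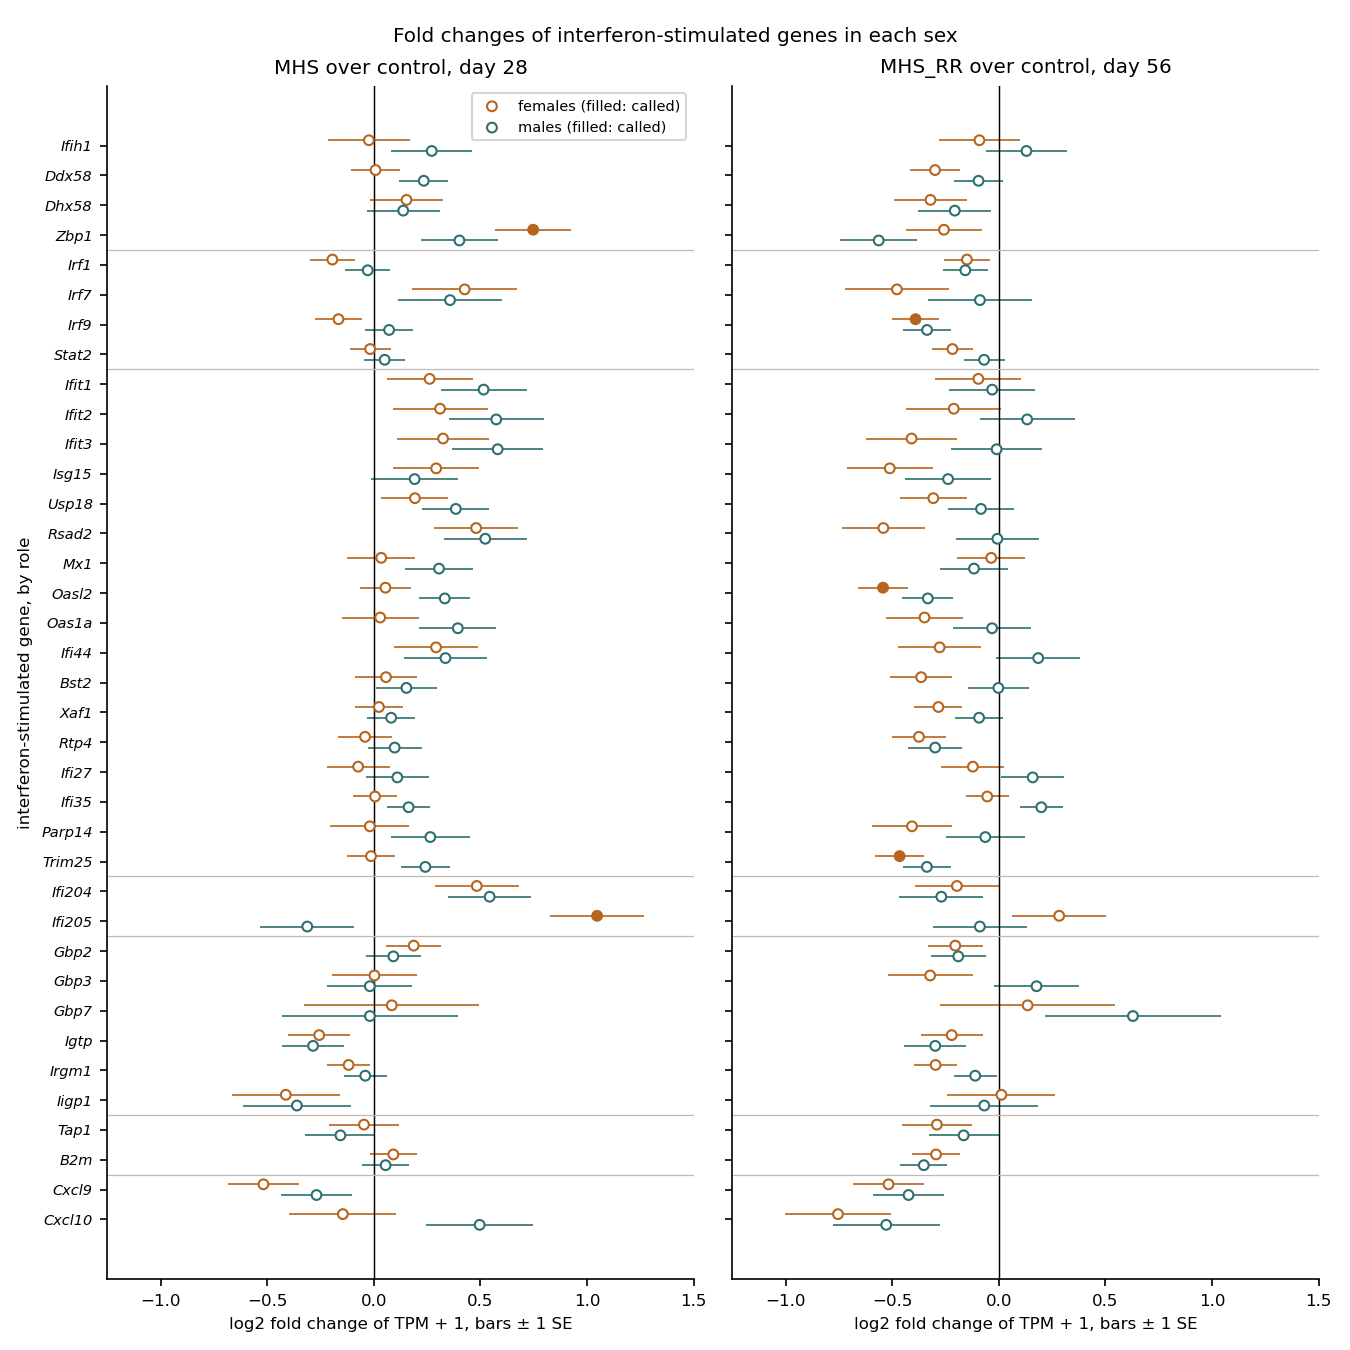
Log2 fold change on the log2(TPM + 1) scale, with SE bars, of each member in MHS against day 28 controls and in MHS_RR against day 56 controls, for females and males (filled points, limma adjusted p under 0.05). Zbp1 and Ifi205 are the filled points for MHS, both in females, and Oasl2, Trim25 and Irf9 are the filled points for MHS_RR, also in females.

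B2m fell in the average. It was 808, 709 and 713 TPM in MHS_RR females, against 954, 847 and 933 TPM in day 56 control females, which did not overlap. In MHS_RR males it was 798, 744 and 672 TPM, against 999, 788 and 1055 TPM in controls, with a slight overlap. The log2 fold change was -0.32 ± 0.08 (limma adjusted p = 0.00967). Under median-of-ratios scaling it was -0.24 (limma adjusted p = 0.0691), and with GC content and length corrected it was -0.56 (limma adjusted p = 0.00733). Tap1 was -0.23 and was not called.

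The chemokines both fell. Cxcl9 was 3.85, 3.55 and 3.69 TPM in MHS_RR females, against 6.36, 4.98 and 5.87 TPM in day 56 control females, and 3.61, 4.33 and 4.18 TPM in MHS_RR males, against 5.07, 6.21 and 6.02 TPM in control males. Cxcl10 was 0.219, 0.530 and 0.491 TPM in MHS_RR females, against 1.94, 0.738 and 1.61 TPM in controls, and 0.533, 0.458 and 0.479 TPM in MHS_RR males, against 1.29, 1.22 and 0.956 TPM in controls. For both chemokines all 6 MHS_RR libraries lay below the controls of their sex. The log2 fold change was -0.47 ± 0.12 for Cxcl9 (limma adjusted p = 0.0126) and -0.64 ± 0.18 for Cxcl10 (limma adjusted p = 0.0192). Cxcl10 was not called without female control day 56 replicate 3 (limma adjusted p = 0.0509). Cxcl10 also had the widest spread of group means of any member, at a ratio of 4.76.

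Zbp1 was 3.16, 1.52 and 1.92 TPM in MHS_RR females, against 3.38, 2.72 and 2.20 TPM in day 56 control females, which overlapped. MHS_RR males, at 1.79, 2.33 and 1.72 TPM, lay below control males, at 3.78, 3.06 and 3.21 TPM. Its average of -0.41 ± 0.13 (limma adjusted p = 0.0327) was lost in 7 of the 24 fits that left out 1 library, among them the fit without female MHS_RR replicate 3 (limma adjusted p = 0.0711), with the highest adjusted p of 0.106 without female MHS_RR replicate 2. The other sensors were not called, at -0.26 for Dhx58, -0.20 for Ddx58 and 0.02 for Ifih1.

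Rsad2, Ifit3 and Ifi204, called higher with MHS, were not called at day 56. Rsad2 was 11.7, 10.4 and 10.8 TPM in MHS_RR females, against 15.8, 15.8 and 17.6 TPM in day 56 control females, and 13.99, 9.61 and 12.4 TPM in MHS_RR males, against 10.6, 17.5 and 9.08 TPM in control males. Females did not overlap and males did, for an average of -0.27 (limma adjusted p = 0.185). Ifit3 was 14.1, 16.6 and 10.4 TPM in MHS_RR females, against 19.8, 17.1 and 17.8 TPM in controls, and 19.9, 11.8 and 10.7 TPM in MHS_RR males, against 15.7, 11.9 and 13.8 TPM in controls, for an average of -0.21.

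Ifi204 was 6.35, 5.83 and 6.12 TPM in MHS_RR females, against 9.56, 6.39 and 5.90 TPM in day 56 control females, and 6.81, 5.38 and 5.63 TPM in MHS_RR males, against 8.39, 8.24 and 5.67 TPM in control males. Its ranges overlapped in each sex (average -0.23, limma adjusted p = 0.264). Ifi205 was 13.3, 8.97 and 9.30 TPM in MHS_RR females, against 10.995, 9.23 and 5.63 TPM in controls, and 16.8, 16.4 and 14.5 TPM in MHS_RR males, against 22.5, 13.6 and 15.9 TPM in controls (average 0.10). The mean of MHS_RR females, 10.5 TPM, lay above the 8.62 TPM of their controls with overlapping ranges (0.28, limma adjusted p = 0.495). Ifi205 was 1 of 5 members above 0 in the average, with Ifih1, Ifi27, Ifi35 and Gbp7.

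Isg15, the ubiquitin-like modifier, and Usp18 were among the members not called. Isg15 was 9.90, 13.0 and 8.54 TPM in MHS_RR females, against 12.9, 17.4 and 15.5 TPM in day 56 control females, and 16.1, 11.8 and 7.90 TPM in MHS_RR males, against 15.6, 13.5 and 12.2 TPM in control males (average -0.37, limma adjusted p = 0.0795). Usp18 was 4.88, 3.88 and 3.03 TPM in MHS_RR females, against 4.67, 6.01 and 4.52 TPM in controls, and 4.60, 3.98 and 3.51 TPM in MHS_RR males, against 4.47, 4.46 and 4.01 TPM in controls (average -0.20). In both genes male MHS_RR replicate 1 was above every control male.

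Of the remaining abundant members, Bst2 was 43.7, 45.9 and 32.7 TPM in MHS_RR females, against 60.2, 49.4 and 47.9 TPM in day 56 control females, and 56.1, 50.2 and 39.5 TPM in MHS_RR males, against 52.2, 49.95 and 43.0 TPM in control males. Iigp1 was 37.4, 36.6 and 44.3 TPM in MHS_RR females, against 53.8, 36.4 and 30.1 TPM in controls, and 36.8, 25.9 and 37.8 TPM in MHS_RR males, against 26.0, 48.5 and 33.0 TPM in controls. Irgm1 was 28.0, 25.0 and 23.0 TPM in MHS_RR females, against 32.8, 32.1 and 29.0 TPM in controls, and 28.8, 24.1 and 23.5 TPM in MHS_RR males, against 24.05, 29.8 and 29.0 TPM in controls. In females Bst2 and Irgm1 were lower without overlap, in males their ranges overlapped, and Iigp1 overlapped in each sex. Their averages were -0.18 for Bst2, -0.03 for Iigp1 and -0.20 for Irgm1, and none was called.

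MHS_RR females lay wholly below their controls for 19 of the 37 members and above for 0, where 22.1% of all genes lay below and 4.69% above. MHS_RR males lay wholly below for 8 and above for 0, where 14.4% of all genes lay below and 4.77% above. Irf9, Oasl2, Rtp4, Trim25, Cxcl9 and Cxcl10 lay wholly below in each sex, and in males Zbp1 and Igtp did too. The female minus male difference of the MHS_RR effect was called for 0 members and 0% of all genes, with 0 members at an unadjusted p under 0.05.

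Markers of some other cell types were lower in the same libraries. With MHS_RR, 8 of 12 macrophage markers, 6 of 8 endothelial markers and 3 of 6 fibroblast markers were called lower in the average, with median log2 fold changes of -0.32, -0.36 and -0.30. Summed macrophage markers were 286 to 329 TPM in MHS_RR females, against 327 to 426 TPM in day 56 control females, and 297 to 381 TPM in MHS_RR males, against 391 to 518 TPM in control males. Summed endothelial markers were 437 to 502 TPM in MHS_RR females, against 565 to 688 TPM in control females, and 469 to 550 TPM in MHS_RR males, against 578 to 648 TPM in control males. Of the T and natural killer cell markers 0 of 6 tested were called in either direction, and of the neutrophil markers 0 of 4. Among the other lists 1 of 8 ventricular markers and 1 of 3 dendritic cell markers tested were called lower, and the B cell marker Cd79a was called higher (0.58, limma adjusted p = 0.0248). None of the listed macrophage or endothelial genes is a member, although Bst2 is also on the dendritic cell list. The part of these cell types in the lower member levels was not tested.

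**Figure D5:**
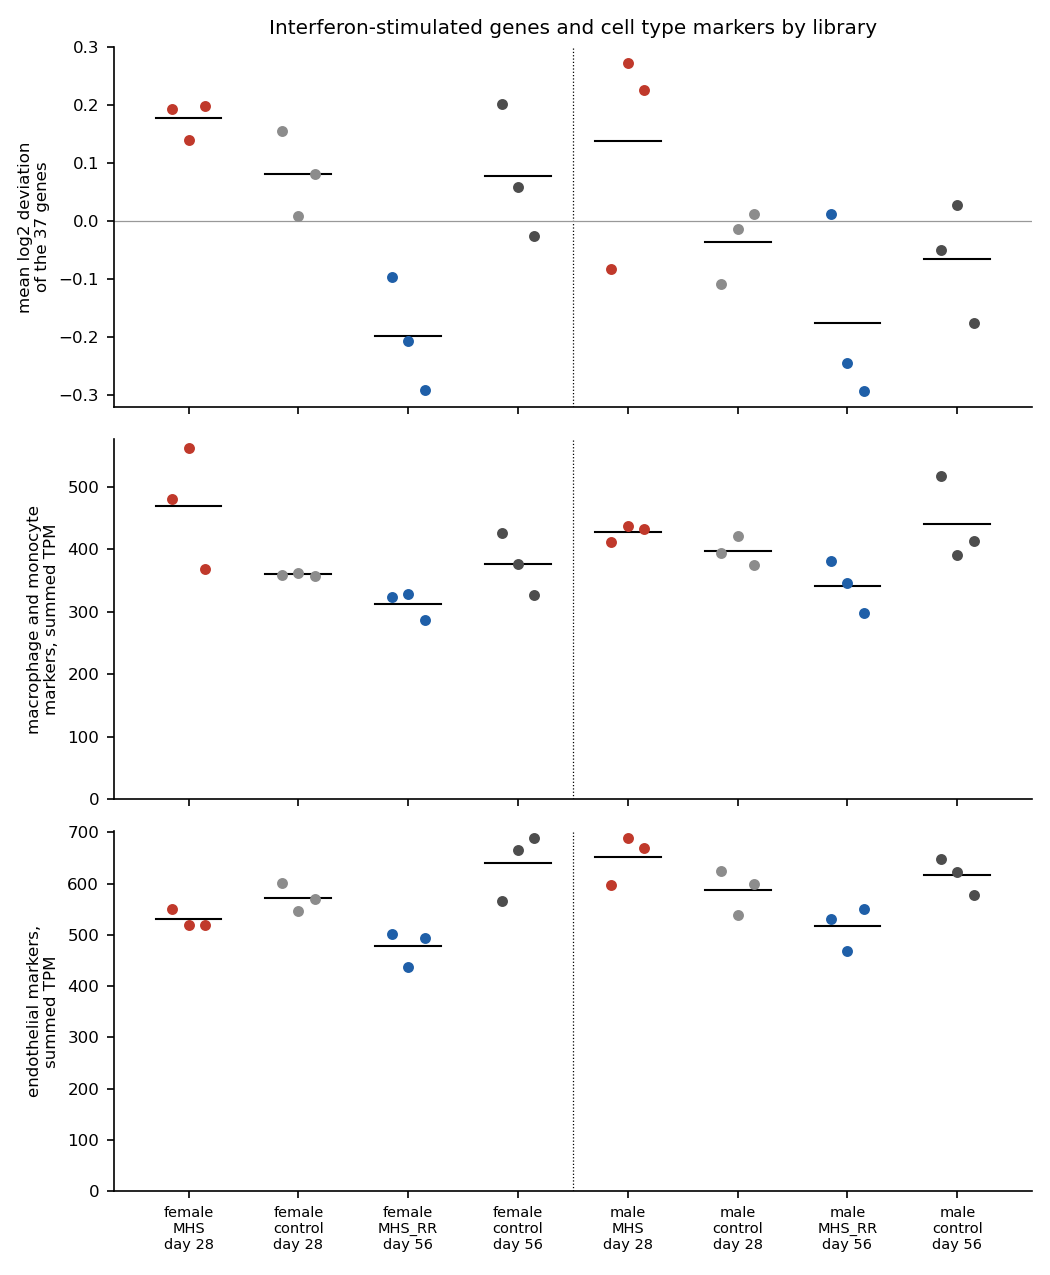
Per library, the mean log2 deviation of the 37 members from their own averages, the summed TPM of 12 macrophage markers and the summed TPM of 8 endothelial markers (points, libraries; line, group mean). MHS_RR groups are low in all 3 panels, with endothelial sums of 437 to 550 TPM in the 6 MHS_RR libraries beside 565 to 688 TPM in the 6 day 56 controls.

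The MHS_RR effect was then set directly against the MHS effect, each relative to the controls of its own day and averaged over the sexes. This difference was called lower for 10 of the 37 members and higher for 0, where 15.2% of all genes were called lower and 2.58% higher. It was largest on this scale for Zbp1, at -0.98 ± 0.18 (limma adjusted p = 0.00101), whereas with a pseudocount of 0.1 it was -1.29 for Zbp1 and -1.57 for Cxcl10. Among the effectors it was largest for Rsad2, at -0.78 ± 0.20 (limma adjusted p = 0.0105). Oasl2 (-0.63), Trim25 (-0.52), Ifi204 (-0.75), B2m (-0.40), Cxcl10 (-0.82), Ifit3 (-0.66), Usp18 (-0.48) and Isg15 (-0.62) were the others. Cxcl9, lower at each stage, had a difference of -0.08. The median of the members was -0.34, against -0.10 for all genes. Quantile normalization moved the all-gene median by more than 0.1, to 0.01, with a member median of -0.21, 6 members called lower and all-gene calls of 756 higher and 1018 lower, against 362 and 2136.

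The controls gave the background of sex and day. Females against males among the 12 controls, which also serve the comparisons above, showed 1 member higher (Oasl2) and 1 lower (Ifi205), where 0.711% of all genes were called higher and 0.391% lower. In all, 30 of 37 members lay above 0 (25 under quantile normalization), with a median of 0.19 against 0.07 for all genes. Oasl2 was 11.6 to 14.2 TPM in the 6 control females, against 7.80 to 11.5 TPM in the 6 control males, at 0.40 ± 0.08 (limma adjusted p = 0.0241). It was not called under quantile normalization (limma adjusted p = 0.125), where the all-gene calls were 35 higher and 86 lower, against 100 and 55.

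Ifi205 was the member with the clearest sex difference. It was 4.32 to 10.995 TPM in the 6 control females, against 13.6 to 22.5 TPM in the 6 control males, with no overlap (-1.37 ± 0.16, limma adjusted p = 3.64e-05). The call was kept in every fit that left out 1 library. Its group means ran over a ratio of 3.99, from day 28 control females at 4.86 ± 0.48 TPM to day 28 control males at 19.4 ± 1.9 TPM (SD, n = 3 each). MHS females (11.5 ± 3.7 TPM), MHS_RR females (10.5 ± 2.4 TPM) and day 56 control females (8.62 ± 2.7 TPM) lay between and did not separate from each other. Between day 56 and day 28 controls 0 members and 0% of all genes were called, with 0 members higher and 1 lower at an unadjusted p under 0.05, Iigp1 at -0.48 ± 0.18 (limma adjusted p = 0.892).

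Pathway genes outside the members were counted from a list of 65, of which 63 were in the table and 42 could be tested. The list held interferon ligands, receptors and kinases, signal carriers and upstream adaptors, inhibitors, and class I presentation genes. With MHS, averaged over the sexes, 4 of the 42 rose and 3 fell, where 11.1% of all genes were called higher and 5.88% lower, so the counts were near the background. The phosphatases Ptpn11 (0.61, limma adjusted p = 2e-05) and Ptpn6 (0.51, limma adjusted p = 0.00486), which act on cytokine receptor signalling, rose, as did the receptor chain Ifngr1 (0.35, limma adjusted p = 0.000274) and the immunoproteasome subunit Psmb10 (0.30, limma adjusted p = 0.00985). The proteasome activator Psme1 (-0.27, limma adjusted p = 0.000505) and the receptor chains Ifngr2 (-0.27, limma adjusted p = 0.00123) and Il10rb (-0.27, limma adjusted p = 4.91e-05) fell.

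With MHS_RR the count was 1 higher, Psmb10, and 11 lower of the 42, where 14.3% of all genes were called lower and 1.98% higher. The lower genes included the kinase Jak1 (-0.46, limma adjusted p = 0.000739), which serves both interferon types, and the receptor chains Ifnar1 (-0.23, limma adjusted p = 0.0341) and Ifngr2 (-0.19, limma adjusted p = 0.0236). Adaptors and sensors upstream of interferon production fell too, namely Tmem173 (STING, -0.32, limma adjusted p = 0.0292), Ticam1 (-0.27, limma adjusted p = 0.03), Myd88 (-0.22, limma adjusted p = 0.0449) and Tlr9 (-0.30, limma adjusted p = 0.0406). Samhd1, Tapbp and Irf8 were also among the lower genes. In females alone 3 fell (Jak1, Samhd1 and Myd88), and in males 0 were called.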

How the data were processed

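The authors deposited 1 table of TPM values (transcripts per library share, corrected for length, per gene symbol), made per the labels with STAR, Salmon and the mm9 genome, whose versions are not given in the sources used here. Each of the 24 columns summed to 1000000, which leaves the sequencing depth unknown and allows no interval for counting error. Every column matched a sample by name. Groups came from the sample titles, since the time and treatment labels contradict the titles for 12 libraries.

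Genes with at least 0.5 TPM in at least 3 libraries were kept (14055 genes). Values were taken as log2(TPM + 1) and fitted with limma 3.58.1 in R 4.3.3 with 1 mean per group, an intensity trend and 16 residual degrees of freedom. There were 11 two-sided comparisons, with Benjamini-Hochberg adjustment over all genes and calls at 0.05. The script was tested on simulated data. No set test was run. The members and lists were chosen with earlier results of these data known. Any member could be named. Values in every library were given for up to 14 members called in a treatment comparison, the 5 with the highest mean TPM and the 5 with the highest ratio of group means, and pathway genes were named where called, except 1 that is not reported here.

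There were 36 alternatives, 24 of which left out 1 library. Transcript GC content, length and shared 31-base words came from GENCODE M21 for another build than the deposited values, so only its symbols were used, and promoters came from RefSeq GRCm38.p6. A comparison of protein relatives was not run.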

Additional observations from a re-analysis of the deposited data

Results flagged for a closer look

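For 10 of the 37 members the MHS_RR effect differed from the MHS effect in a limma test of the difference itself, averaged over the sexes and adjusted over all 14055 genes. All 10 were called lower, where 15.2% of all genes were called lower and 2.58% higher, so the direction was shared by the transcriptome as a whole. The log2 difference, MHS_RR effect minus MHS effect, was -0.98 ± 0.18 (SE) for Zbp1 (adjusted p = 0.00101), -0.63 ± 0.12 for Oasl2 (adjusted p = 0.00135) and -0.52 ± 0.11 for Trim25 (adjusted p = 0.00436). It was -0.78 ± 0.20 for Rsad2 (adjusted p = 0.0105), -0.75 ± 0.20 for Ifi204 (adjusted p = 0.0132) and -0.40 ± 0.11 for B2m (adjusted p = 0.0183). The smaller margins were those of Cxcl10, at -0.82 ± 0.25 (adjusted p = 0.0294), Ifit3, at -0.66 ± 0.21 (adjusted p = 0.0377), Usp18, at -0.48 ± 0.16 (adjusted p = 0.038), and Isg15, at -0.62 ± 0.20 (adjusted p = 0.0408).

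The calls at each stage differed among these members. A call at 1 stage and none at the other does not show different behaviour, and no test separated the patterns listed here. Zbp1 was called higher with MHS and lower with MHS_RR. Rsad2, Ifi204 and Ifit3 were called higher with MHS and not called with MHS_RR, whereas Oasl2, Trim25, B2m and Cxcl10 were called lower with MHS_RR and not called with MHS. Usp18 and Isg15 were called at neither stage. In the 24 fits that left out 1 library, Zbp1, Oasl2, Trim25, Rsad2, Ifi204 and B2m were called every time. Cxcl10 was not called in 6 fits, Usp18 in 11, Ifit3 in 15 and Isg15 in 15, with highest adjusted p values of 0.0604 without male control day 28 replicate 2, 0.0754 without female control day 56 replicate 2, 0.0727 without male MHS_RR replicate 2 and 0.079 without male MHS replicate 2.

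Macrophage, endothelial and fibroblast markers moved the same way: 5 of 12, 4 of 8 and 5 of 6 were called lower in the same difference. Their part in the member values was not tested.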

How the results depend on the processing

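Directions were kept by every called member under every alternative run for single genes, and the numbers of calls moved, as did some sizes: with a pseudocount of 0.1 the log2 fold change of Cxcl10 was -1.31 for MHS_RR averaged over the sexes, and over the alternatives that of B2m ran between -0.24 and -0.56. Under quantile normalization 0 members were called for MHS_RR in females, 5 for MHS_RR averaged over the sexes, 6 for the MHS_RR effect minus the MHS effect and 1 for sex among controls. Median-of-ratios scaling gave 1, 5, 6 and 1. Array weights gave 5 for MHS_RR in males, 5 for MHS_RR in females and 13 for sex among controls. Fits of only the groups compared gave 1 for MHS in females, 1 for MHS_RR in females and 1 for sex among controls. Without the 2 libraries that stood apart (female control day 28 replicate 2 and female MHS_RR replicate 3) the counts were 1 for MHS in females, 1 for MHS averaged, 0 for MHS_RR in females and 1 for sex among controls. Grouping by the time and treatment labels, in which titled MHS and titled day 56 control libraries change places, gave 0 for MHS and 23 for MHS_RR, averaged. All-gene calls are given above for quantile normalization and, for MHS_RR averaged, for median-of-ratios scaling. The member counts for the other settings in this section have no all-gene share beside them. A change of the members therefore cannot be told from a general rise or fall in calls. The cause of these shifts was not tested.

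Correction for GC content and length, added after seeing the data, gave 2 for MHS in males and 8 for MHS averaged, and with a replicate block as well 2, 9 and, for MHS_RR in females, 5. The replicate block alone gave 6 for MHS averaged, 4 for MHS_RR in females, 8 for MHS_RR averaged and 13 for the difference of effects. Same-numbered replicates had deviations correlated at -0.273 to 0.255. Whether the replicate numbers mark a shared batch cannot be told from these values.

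Leaving out 1 library at a time gave 0 to 2 calls for MHS in males, 1 to 3 in females and 2 to 7 averaged. It gave 0 for MHS_RR in males, 0 to 5 in females and 7 to 12 averaged, 6 to 14 for the difference of effects, 1 to 2 for sex, and 0 for day and for both female minus male differences. Unknown depth limits what can be said of low genes such as Mx1 and Cxcl10.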
